A study of Mus musculus with 16 samples.

Results

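The genes described here make and remodel the extracellular matrix of the liver: 41 genes for collagens, matrix glycoproteins, matrix proteases and their inhibitors, cross-linking enzymes, contractile proteins, fibrogenic growth factors and markers of hepatic stellate cells. They were taken by symbol from a given list, out of 28090 gene names on the array. At least 1 probe was kept for 39 of the 41 genes. The other two, Col6a3 (a chain of type VI collagen) and Lox (lysyl oxidase), had no probe that reached the filter (a signal called well above background in 4 or more of 24 channels), so their levels are not given.

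Liver RNA was compared on 2-colour arrays, in which RNA of 1 genotype is labelled with Cy3 and of another with Cy5, in 8 experiments that were each repeated with the dyes swapped. The genotypes were wild type, Nrf2–/– (Nrf2 KO), Atg7F/F:Mx1-Cre (Atg7 cKO) and Atg7F/F:Mx1-Cre:Nrf2-/- (double knockout). Wild type was the partner of Nrf2 KO in experiments 1 and 4, of Atg7 cKO in experiments 2 and 5 and of the double knockout in experiments 3 and 6. Experiments 7 and 8 put the double knockout and Atg7 cKO on the same array. Per the labels the mice were 8 weeks old when pIpC was injected and RNA was taken from whole liver 4 weeks later, although the growth protocol words this as treatment over 4 weeks. pIpC switches on Cre from the Mx1 promoter, which is active in hepatocytes, blood-derived cells and other liver cells, so the deletion of Atg7 is not limited to 1 cell type. The wild-type partner's Cre and floxed alleles, the strain and the number of animals behind each RNA are not given in the sources used here. Unless stated otherwise, a value is a log2 ratio of knockout over wild type, averaged over the dye orientations, so that 1 means a 2-fold difference.

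Hepatic stellate cells lie between the hepatocytes and the sinusoidal endothelium. At rest they store retinyl esters, and after injury they turn into contractile cells that lay down fibrillar collagen. Transforming growth factor beta and platelet-derived growth factor drive this change. Collagen is then stabilised by lysyl oxidases and broken down by matrix metalloproteinases, which the TIMP proteins inhibit. Autophagy, which needs the enzyme Atg7, removes damaged proteins and organelles, and Nrf2 (gene Nfe2l2) is a transcription factor for antioxidant and detoxifying enzymes. The comparisons address how the loss of each gene, and of both, changes the transcripts of the liver.

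Nfe2l2 was at -3.88 in Nrf2 KO, -3.71 in the double knockout and 1.20 in Atg7 cKO, and Atg7 was at -0.81 in Atg7 cKO, with -0.73 in the double knockout (limma adjusted p from 6.75e-04 to 0.026). Experiments 1 to 3 and experiments 4 to 6 formed separate sets: the log2 signal of Xist lay between 5.75 and 5.80 in the first set and between 10.87 and 11.34 in the second, over both channels, while Ddx3y was at 7.65 to 7.88 and 5.75 to 5.81. Each comparison with wild type has 1 experiment in each set, so its 2 values are also its values within the sets. In bulk RNA, fewer cells of a type and less RNA per cell cannot be told apart.

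The sets also differed in wild-type levels, over the array as a whole. For 19 of the 39 genes (48.7%) the wild-type log2 signals of experiments 1 to 3 did not overlap those of experiments 4 to 6, near the 40.9% of all 16425 genes tested. Of the 19, 15 were higher in experiments 4 to 6 and 4 in experiments 1 to 3. The widest gap was that of Mmp14, a membrane-anchored collagenase, at 8.97, 8.99 and 9.04 in the first set and 9.83, 9.75 and 9.77 in the second. Lgals1, which encodes galectin-1, lay at 8.45 to 8.52 in the first set and 8.88 to 8.95 in the second, and Sparc, a collagen-binding glycoprotein, lay the other way, at 8.30 to 8.63 and 8.02 to 8.16. The sex-linked transcripts and the experiments divide along the same sets, so their parts in these levels cannot be told apart.

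In Nrf2 KO liver the limma fit called 0 of the 39 genes at an adjusted p under 0.05, beside 0.00% of all genes called higher and 0.0122% called lower. The median ratio of the 39 genes was 0.03, and that of all genes 0.004. At an unadjusted p under 0.05 there were 6 genes: Ctgf, Col14a1, Tgfbi, Col3a1 and Fn1 with positive ratios (0.43, 0.29, 0.29, 0.27 and 0.19) and Lrat with a negative one (-0.33). They are 15.4% of the 39 genes, beside 3.69% of all genes at that threshold. For the 33 genes measured in both channels, the 95% intervals lay within 1 log2 unit of 0. Mmp12, Mmp13 and Des were not well above background in either channel, and Col5a2, Col6a1 and Col6a2 not in wild type, so their intervals bound no change. Col1a1, for a chain of type I collagen, had an interval of -0.14 to 0.16 and Acta2, for smooth muscle actin, one of -0.38 to 0.10. The fit on single arrays, with experiment as a random block, also called 0 of these genes.

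In Atg7 cKO liver 23 of the 39 genes were called higher (59.0%) and 2 lower, beside 23.4% of all genes called higher and 16.3% called lower. In the double knockout 21 were called higher (53.8%) and 0 lower, beside 21.4% and 16% of all genes (limma). At an unadjusted p under 0.05 Reln was the 1 gene that counted as lower there, with an adjusted p of 0.0756. Median ratios of the 39 genes were 0.42 and 0.39, where those of all genes were 0.003 and 0.005. All 25 calls in Atg7 cKO and all 21 in the double knockout had the same direction on all 4 arrays of its comparison. With a filter of 12 of 24 channels, 22 of the 25 Atg7 cKO calls were left. Mmp12, Mmp13 and Col5a2, which had passed the filter mainly through Atg7-deficient arrays, dropped out. All 21 calls of the double knockout stayed. At least 2-fold changes were called for 9 genes in each: Col1a1, Col1a2, Col3a1, Vim, Ctgf, Lgals1 and Lgals3 in either, with Mmp13 and Loxl2 in Atg7 cKO and with Mmp14 and Tgfbi in the double knockout. These comparisons may share wild-type RNA, which the labels do not settle, so their values are set side by side and not correlated.

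**Figure D1:**
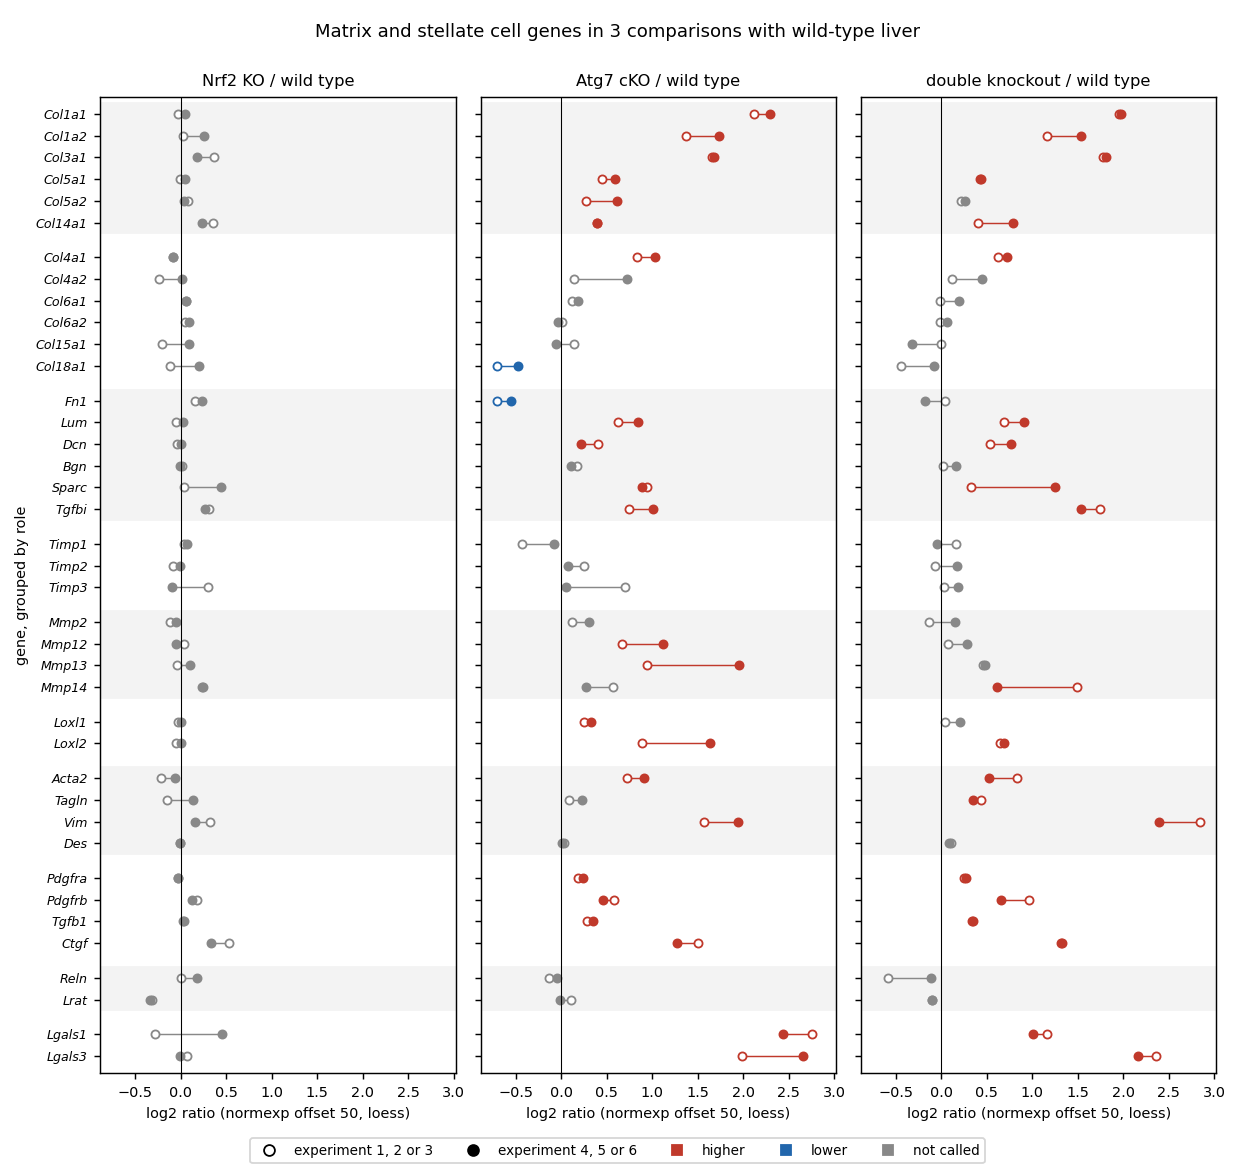
Log2 ratio of knockout over wild type (x axis, no unit) for the 39 measured genes (y axis, grouped by role), with 1 panel for each knockout genotype; an open point is the experiment of the first set, a filled point that of the second, and colour gives the limma call. Nrf2 KO holds 0 calls, Atg7 cKO 23 higher and 2 lower, and the double knockout 21 higher.

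Fibrillar collagens, the fibre-forming scaffold, were grouped with Col14a1, whose type XIV collagen binds to the fibres. All 6 genes were called higher in Atg7 cKO (median 1.04) and 5 of 6 in the double knockout (median 0.97). Col1a1 (probe at chr11:94813075-94813134, plus strand, mm9) was at -0.03 and 0.05 in Nrf2 KO, 2.12 and 2.30 in Atg7 cKO, and 1.95 and 1.97 in the double knockout. Its 4 high values lay far above the other two and close to each other. A dimmer Col1a1 probe, well above background in 8 of 24 channels, gave 0.32 and 0.24. On the brighter probe the means were 2.21 ± 0.13 (SD, n = 2; limma adjusted p = 1.08e-04) in Atg7 cKO and 1.96 ± 0.02 (adjusted p = 3.31e-04) in the double knockout.

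Col1a2, the partner chain of type I collagen (chr6:4490619-4490678, plus strand, mm9), was at 0.03 and 0.26 in Nrf2 KO, 1.37 and 1.73 in Atg7 cKO, and 1.16 and 1.53 in the double knockout. The ranges of Atg7 cKO and the double knockout overlapped, and both lay above Nrf2 KO. Means were 1.55 ± 0.25 (adjusted p = 0.00145) and 1.35 ± 0.26 (adjusted p = 0.00198, limma). Col3a1, the chain of type III collagen (chr1:45405589-45405648, plus strand, mm9), was at 0.36 and 0.18 in Nrf2 KO, 1.66 and 1.68 in Atg7 cKO, and 1.78 and 1.80 in the double knockout. The replicates lay close in both Atg7-deficient groups, with an SD of 0.02 in each (adjusted p = 2.27e-04 and 3.31e-04, limma). Col5a1, a chain of the fibrillar type V collagen (0.52 and 0.43), and Col14a1 (0.40 and 0.59) were called in both comparisons. The Col14a1 call in Atg7 cKO was lost with the deposited processed signals, which carry no offset. It was also lost when any 1 of experiments 1, 2, 4 or 5 was left out. Col5a2 was called in Atg7 cKO (0.44) and stood at 0.24 in the double knockout. Its probe was not well above background on any of the 12 wild-type arrays, so a bound is also given. It was 1.36-fold in Atg7 cKO, the same as the fold difference, and 1.17-fold in the double knockout (adjusted p of the ratio = 0.0899, limma). Such a bound sets the knockout's mean against the wild-type signal, or against the dimmest signal still counted as well above background where that was higher. It carries no test. Col5a2 passed the filter mainly through the Atg7-deficient arrays. Without an offset its ratios were 2.07 and 2.53 in Atg7 cKO, with 2.36 and 1.70 in the double knockout. The Col5a2 call was lost without experiment 5.

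Basement membrane and microfibril collagens did not move as a block. Col4a1, a chain of the type IV network beneath endothelium, was called higher in both comparisons, at 0.93 and 0.67. Col4a2, its partner, stood at 0.43 and 0.28 without a call. Col18a1, the collagen of endostatin and a hepatocyte product, was called lower in Atg7 cKO at -0.59 (experiments -0.70 and -0.48, adjusted p = 0.0175) and was at -0.26 in the double knockout. Its second probe gave -0.60 and -0.31. The Col18a1 call was lost without experiment 2 or 5. Col15a1 was at 0.04 and -0.16 without a call. Col6a1 and Col6a2, of the beaded filaments around cells, were dim, with 2 and 0 of the 12 wild-type arrays well above background. Neither was called, and the highest bound was that of Col6a1 in Atg7 cKO, 1.11-fold, which is also its fold difference (adjusted p = 0.116, limma).

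**Figure D2:**
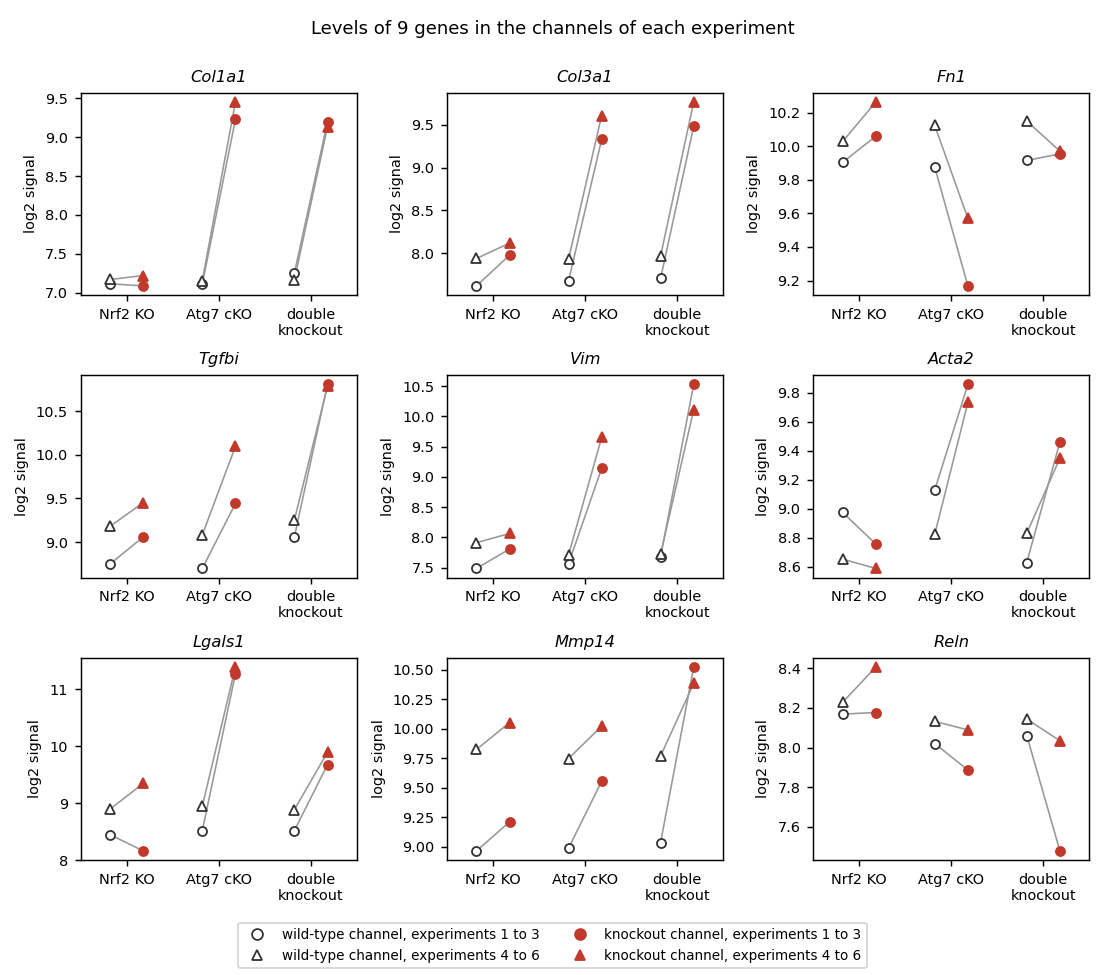
Log2 signal (y axis) in the wild-type channel (open) and knockout channel (filled) of each experiment for 9 genes, joined by experiment, with circles for experiments 1 to 3 and triangles for experiments 4 to 6. Col1a1 rises from 7.11 to 7.25 in wild type to 9.13 to 9.45 in the Atg7-deficient livers, Fn1 falls in both Atg7 cKO experiments, and the Mmp14 wild-type points form separate levels by set.

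Among glycoproteins and proteoglycans, which bind collagen and cells, 4 of 6 genes were called higher in either comparison. Lum (lumican) was at 0.73 and 0.79, Dcn (decorin) at 0.31 and 0.65, and Sparc at 0.92 and 0.78, each for Atg7 cKO and the double knockout in turn. Bgn (biglycan), at 0.14 and 0.09, was not called. For Sparc the experiments of the double knockout stood apart, at 0.32 and 1.24, and its call there (adjusted p = 0.0456) was lost when any 1 of experiments 1, 2, 4, 5 or 6 was left out. In Atg7 cKO the calls of Sparc and Dcn were lost with slide as a block and when any 1 of experiments 1, 2, 4 or 5 was left out. A second Sparc probe, slightly dimmer and well above background in 24 of 24 channels, gave the reverse order, 0.79 and 1.20. On the direct arrays it gave 0.61 and the brighter probe -0.11, so the Sparc difference between these genotypes depends on the probe.

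Tgfbi encodes a matrix protein induced by transforming growth factor beta (chr13:56740460-56740519, plus strand, mm9). Its ratios were 0.31 and 0.27 in Nrf2 KO, 0.74 and 1.01 in Atg7 cKO, and 1.75 and 1.53 in the double knockout. The groups did not overlap, with the double knockout highest. Means were 0.88 ± 0.19 (adjusted p = 0.00203) and 1.64 ± 0.15 (adjusted p = 6.89e-04, limma). On the arrays that paired the double knockout with Atg7 cKO, Tgfbi was at 1.12 in experiment 7 and 0.63 in experiment 8.

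Fn1, for fibronectin, which hepatocytes secrete into plasma and stellate cells place in the matrix, went the other way (probe within chr1:71637422-71639659, minus strand, mm9, spanning more than its own length). It was at 0.15 and 0.23 in Nrf2 KO, -0.71 and -0.55 in Atg7 cKO, and 0.04 and -0.18 in the double knockout. The Atg7 cKO values lay below all others. Fn1 was called lower in Atg7 cKO (-0.63 ± 0.11, adjusted p = 0.00313) and was at -0.07 ± 0.15 in the double knockout (adjusted p = 0.505, limma). Its dimmer probes had the same signs in Atg7 cKO, at -0.21 and -0.31.

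Protease inhibitors were not called in any comparison. Timp1, the inhibitor most often tied to fibrosis, was at 0.04 and 0.07 in Nrf2 KO, -0.43 and -0.08 in Atg7 cKO, and 0.16 and -0.05 in the double knockout. Its 2 kept probes disagreed in sign in Atg7 cKO: the brighter gave -0.26 and the dimmer, well above background in 8 of 24 channels, gave 0.20. At an unadjusted p under 0.05 the brighter probe counted as lower in Atg7 cKO (adjusted p = 0.0985, limma). Timp2 and Timp3 lay between 0.05 and 0.38 in the Atg7-deficient groups. Timp3 differed most between experiments of Atg7 cKO, at 0.70 and 0.06.

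The proteases divided. Mmp2 (gelatinase A) was not called, at 0.21 in Atg7 cKO, with 0.00 in the double knockout. Mmp12, macrophage elastase (probe within chr9:7354810-7355325, plus strand, mm9), was at 0.04 and -0.05 in Nrf2 KO, 0.67 and 1.13 in Atg7 cKO, and 0.08 and 0.28 in the double knockout. Mmp13, the main interstitial collagenase of the mouse (chr9:7282762-7282821, plus strand, mm9), was at -0.05 and 0.10, then 0.94 and 1.96, then 0.46 and 0.48. For both genes the Atg7 cKO values were the highest and did not overlap the double knockout. Both were called in Atg7 cKO (0.90 ± 0.32, adjusted p = 0.00422, and 1.45 ± 0.72, adjusted p = 0.00726) and not in the double knockout (0.18, adjusted p = 0.295, and 0.47, adjusted p = 0.171, limma).

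Both protease transcripts were close to background, and the size of their change depends on how background is treated. In wild type Mmp13 was well above background on 0 of 12 arrays and Mmp12 on 1 of 12. In Atg7 cKO they were well above it on all 4 arrays, and in the double knockout on 4 and 3 of 4. In Nrf2 KO they were well above it on 0 arrays. They thus passed the filter mainly through the Atg7-deficient arrays, so their calls are not independent of that filter. With a filter of 12 of 24 channels neither gene was tested. The offset of 50 added to every signal shrinks such ratios. With the deposited processed signals, which carry no offset, Mmp13 was at 5.02 and 5.70 in Atg7 cKO, with 3.52 and 3.79 in the double knockout, and Mmp12 was at 3.30 and 3.62, then 1.62 and 2.26. By the bound described for Col5a2, Mmp13 was at 2.69-fold above wild type in Atg7 cKO and 1.38-fold in the double knockout. Mmp12 was at 1.105-fold in the double knockout. Neither gene was called in the double knockout with the offset of 50, and these bounds carry no test. With either offset and without one, the mean of each gene was highest in Atg7 cKO and lowest in Nrf2 KO.

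**Figure D3:**
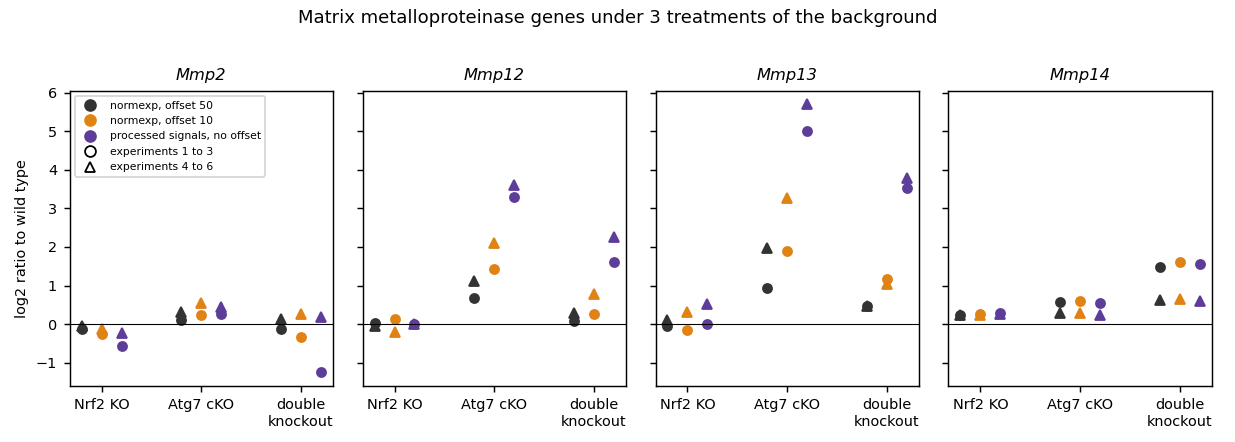
Log2 ratio to wild type (y axis) of 4 matrix metalloproteinase genes in each experiment of the knockout genotypes (x axis), with circles for experiments 1 to 3, triangles for 4 to 6, and colour for the treatment of background. Mmp13 in Atg7 cKO moves from 0.94 and 1.96 with an offset of 50 to 5.02 and 5.70 without one, whereas the brighter Mmp14 barely moves.

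Mmp14, the membrane protease that activates Mmp2 and Mmp13 (chr14:55059969-55060028, plus strand, mm9), did not follow them. It was at 0.25 and 0.23 in Nrf2 KO, 0.57 and 0.28 in Atg7 cKO, and 1.49 and 0.62 in the double knockout. Every double knockout value exceeded every other value, the lower of them by a small margin. The call was made in the double knockout (1.05 ± 0.62, adjusted p = 0.0144) and not in Atg7 cKO (0.42 ± 0.21, adjusted p = 0.161, limma). A dimmer Mmp14 probe gave 0.14 and 0.24.

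Promoter sequences are given for genes that were called when the double knockout was set directly against Atg7 cKO and that have an entry in the RefSeq promoter table (build GRCm38.p6): Mmp12, with 2 annotated starts, Mmp13 and Tgfbi. Each sequence is the 250 bases before a start, 5′ to 3′ on the plus strand. Capitals mark matches, on either strand, to the AP-1 motif TGANTCA, the antioxidant response element core TGACNNNGC, the TATA box TATAAA or the Smad box CAGAC. Overlap between motifs was allowed. In all 32851 windows of this length, 6.75% held the AP-1 motif, 10.2% the antioxidant response element core, 12.4% the TATA box and 42.2% the Smad box. Mmp12 is at chr9:7344147-7344396 and chr9:7347124-7347373, Mmp13 at chr9:7272264-7272513 and Tgfbi at chr13:56609336-56609585.
Mmp13: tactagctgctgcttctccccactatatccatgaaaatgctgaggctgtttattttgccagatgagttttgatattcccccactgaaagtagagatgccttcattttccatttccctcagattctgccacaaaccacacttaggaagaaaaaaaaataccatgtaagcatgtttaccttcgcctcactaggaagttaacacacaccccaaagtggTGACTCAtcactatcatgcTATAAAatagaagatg
Mmp12, first start: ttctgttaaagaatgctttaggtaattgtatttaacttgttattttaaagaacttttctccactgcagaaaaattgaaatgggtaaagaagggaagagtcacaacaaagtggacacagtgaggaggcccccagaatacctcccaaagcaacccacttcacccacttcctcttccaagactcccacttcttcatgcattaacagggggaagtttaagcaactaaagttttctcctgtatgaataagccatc
Mmp12, second start: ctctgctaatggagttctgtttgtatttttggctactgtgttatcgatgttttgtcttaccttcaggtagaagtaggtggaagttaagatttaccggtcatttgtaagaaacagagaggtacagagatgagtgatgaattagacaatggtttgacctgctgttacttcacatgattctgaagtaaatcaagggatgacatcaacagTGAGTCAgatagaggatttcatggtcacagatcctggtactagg
Tgfbi: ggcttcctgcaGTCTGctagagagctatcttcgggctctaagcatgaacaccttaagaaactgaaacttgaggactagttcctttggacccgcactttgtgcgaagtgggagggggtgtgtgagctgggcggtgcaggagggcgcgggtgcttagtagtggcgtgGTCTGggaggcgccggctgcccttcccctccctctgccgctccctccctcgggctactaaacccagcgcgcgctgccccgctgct
The Mmp13 window held an AP-1 match, TGACTCA, from 35 to 29 bases before the start and a TATA box from 16 to 11 bases before it. The window of the second Mmp12 start held an AP-1 match, TGAGTCA, from 44 to 38 bases before it, and that of the first held none of the motifs. Tgfbi held 2 Smad box matches on the minus strand. The antioxidant response element core had no match in these windows, which says only that these letters are not there. Of the 27 genes with an entry, 3 held the AP-1 motif, 3 the antioxidant response element core, 3 the TATA box and 12 the Smad box.

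The cross-linking enzyme gene Loxl2 (chr14:70095254-70095313, plus strand, mm9) was at -0.05 and 0.00 in Nrf2 KO, 0.89 and 1.63 in Atg7 cKO, and 0.64 and 0.69 in the double knockout. Atg7 cKO lay above the double knockout without overlap. It was called higher in either group (1.26 ± 0.52, adjusted p = 0.00438, and 0.67 ± 0.04, adjusted p = 0.0311, limma). The second call was lost without experiment 1, 3, 4 or 6. Loxl1, which serves elastic fibres, was called higher in Atg7 cKO at 0.29 and stood at 0.12 in the double knockout.

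Contractile and cytoskeletal genes gave 2 calls of 4 in Atg7 cKO and 3 of 4 in the double knockout, all higher. Acta2, the standard marker of activated stellate cells, also made by vascular smooth muscle (probe within chr19:34322995-34326249, minus strand, mm9), was at -0.22 and -0.06 in Nrf2 KO, 0.73 and 0.91 in Atg7 cKO, and 0.83 and 0.52 in the double knockout. Both Atg7-deficient groups lay above Nrf2 KO and overlapped each other. Means were 0.82 ± 0.13 (adjusted p = 0.0031) and 0.68 ± 0.22 (adjusted p = 0.00545, limma). The second Acta2 probe gave 0.57 and 0.25.

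Vim, for the intermediate filament vimentin of mesenchymal and blood-derived cells (chr2:13504232-13504291, plus strand, mm9), had the largest ratio of all 39 genes in the double knockout. It was at 0.32 and 0.15 in Nrf2 KO, 1.58 and 1.94 in Atg7 cKO, and 2.84 and 2.39 in the double knockout. The groups did not overlap. Means were 1.76 ± 0.26 (adjusted p = 0.0013) and 2.62 ± 0.32 (adjusted p = 7.11e-04, limma). Tagln (transgelin) was at 0.16 and 0.39 and was called in the double knockout, a call lost with the processed signals and without experiment 3 or 6. A dimmer Tagln probe, well above background in 19 of 24 channels, gave the reverse order, 0.46 and 0.26. On the direct arrays the dimmer probe gave -0.54 and the brighter 0.20, so the difference between these genotypes depends on the probe. Des, for desmin, a muscle and stellate cell filament, was dim, well above background on 1 of 12 wild-type arrays, and was at -0.01 and -0.01 in Nrf2 KO, 0.04 and 0.01 in Atg7 cKO, with 0.10 and 0.08 in the double knockout, without a call.

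Growth factors and receptors were called higher in full, 4 of 4 in either comparison. Ctgf, the matricellular growth factor also named Ccn2 (chr10:24318281-24318340, plus strand, mm9), was at 0.53 and 0.33 in Nrf2 KO, 1.51 and 1.27 in Atg7 cKO, and 1.33 and 1.32 in the double knockout. The 2 Atg7-deficient groups overlapped and lay above Nrf2 KO. Means were 1.39 ± 0.17 (adjusted p = 7.62e-04) and 1.32 ± 0.01 (adjusted p = 7.59e-04, limma). Tgfb1, the central fibrogenic cytokine, was at 0.03 and 0.04, then 0.29 and 0.35, then 0.34 and 0.34. It was a small change with tight replicates (0.32 ± 0.04, adjusted p = 0.005, and 0.34 ± 0.00, adjusted p = 0.00429, limma), measured on a probe well above background on 9 of 12 wild-type arrays. Without an offset its ratios lay between 1.18 and 1.45 in these experiments. The platelet-derived growth factor receptors were at 0.52 and 0.81 (Pdgfrb) and 0.21 and 0.26 (Pdgfra). The Pdgfra call in Atg7 cKO was lost with slide as a block and without experiment 2 or 5. In the double knockout the Pdgfra call was lost without experiment 3 or 6. The Pdgfrb call in Atg7 cKO was lost without experiment 2.

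Genes of quiescent stellate cells were not called in any comparison. Reln, for the secreted protein reelin (chr5:21390477-21390536, minus strand, mm9), was at 0.01 and 0.18 in Nrf2 KO, -0.13 and -0.04 in Atg7 cKO, and -0.58 and -0.11 in the double knockout. Only the first double knockout value stood apart. Lrat, whose enzyme makes the stored retinyl esters, was at -0.32 and -0.34 in Nrf2 KO, 0.11 and -0.01 in Atg7 cKO, and -0.10 and -0.11 in the double knockout. Its lowest values were thus those of Nrf2 KO (-0.33 ± 0.02, adjusted p = 0.526, limma), in both experiments and on 2 probes (-0.33 and -0.12).

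The galectin genes, for secreted sugar-binding proteins, were the highest in Atg7 cKO. Lgals1 (chr15:78760566-78760625, plus strand, mm9) was at -0.28 and 0.45 in Nrf2 KO, 2.76 and 2.44 in Atg7 cKO, and 1.16 and 1.01 in the double knockout. The groups did not overlap. Means were 2.60 ± 0.22 (adjusted p = 0.00106) and 1.08 ± 0.11 (adjusted p = 0.00914, limma), the second of which was lost without experiment 3 or 6. Lgals3, also known as the macrophage antigen Mac-2, was at 0.07 and 0.00 in Nrf2 KO, 1.99 and 2.66 in Atg7 cKO, and 2.36 and 2.16 in the double knockout. Here the Atg7-deficient groups overlapped (2.32 ± 0.47, adjusted p = 0.00102, and 2.26 ± 0.14, adjusted p = 9.52e-04, limma).

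When the double knockout was hybridised directly against Atg7 cKO, 2 of the 39 genes were called higher (5.13%) and 4 lower (10.3%). Of all genes 6.74% were called higher and 8.06% lower. At an unadjusted p under 0.05 there were 12 of the 39 (30.8%), beside 33.8% of all genes. As a set the 39 genes were thus called about as often as all genes, and the calls are those of single genes. Mmp12, Mmp13, Loxl2 and Lgals1 were lower and Fn1 and Tgfbi higher in the double knockout. The median over the 39 genes was -0.07, and that over all genes 0.008. These ratios are those of the deposited processed signals, without offset. All 4 arrays had the called direction for each of the 6 genes.

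The proteases carried the largest differences. Mmp12 was at -1.52 in experiment 7 and -2.39 in experiment 8 (mean -1.96 ± 0.62, adjusted p = 0.00738), and Mmp13 at -1.19 and -2.65 (-1.92 ± 1.03, adjusted p = 0.0217, limma). Their replicates differed more in size than those of the other calls. With a filter of 12 of 24 channels both genes dropped out, and 4 of the 6 direct calls stayed. Mmp14 stood on the opposite side, at 1.05 and 0.32, without a call (adjusted p = 0.132).

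Lgals1 was at -1.72 and -1.55 (-1.63 ± 0.12, adjusted p = 0.00998), the closest replicates among the calls. Loxl2 was at -0.49 and -1.22 (-0.85 ± 0.51, adjusted p = 0.0488). On the other side Tgfbi had a mean of 0.87 ± 0.35 (adjusted p = 0.0181) and Fn1, at 0.80 and 0.42, one of 0.61 ± 0.27 (adjusted p = 0.0322, limma). The Fn1 and Loxl2 calls were lost when any 1 of the 8 experiments was left out and when the kept probes of a gene were averaged. Tgfbi and Lgals1 were lost without experiment 7, and Mmp13 without experiment 8. With 1 experiment left in a group, as there, that experiment is assumed to vary like the other groups. Fitted on experiments 7 and 8 alone, 0 of the 6 passed, with the same signs.

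**Figure D4:**
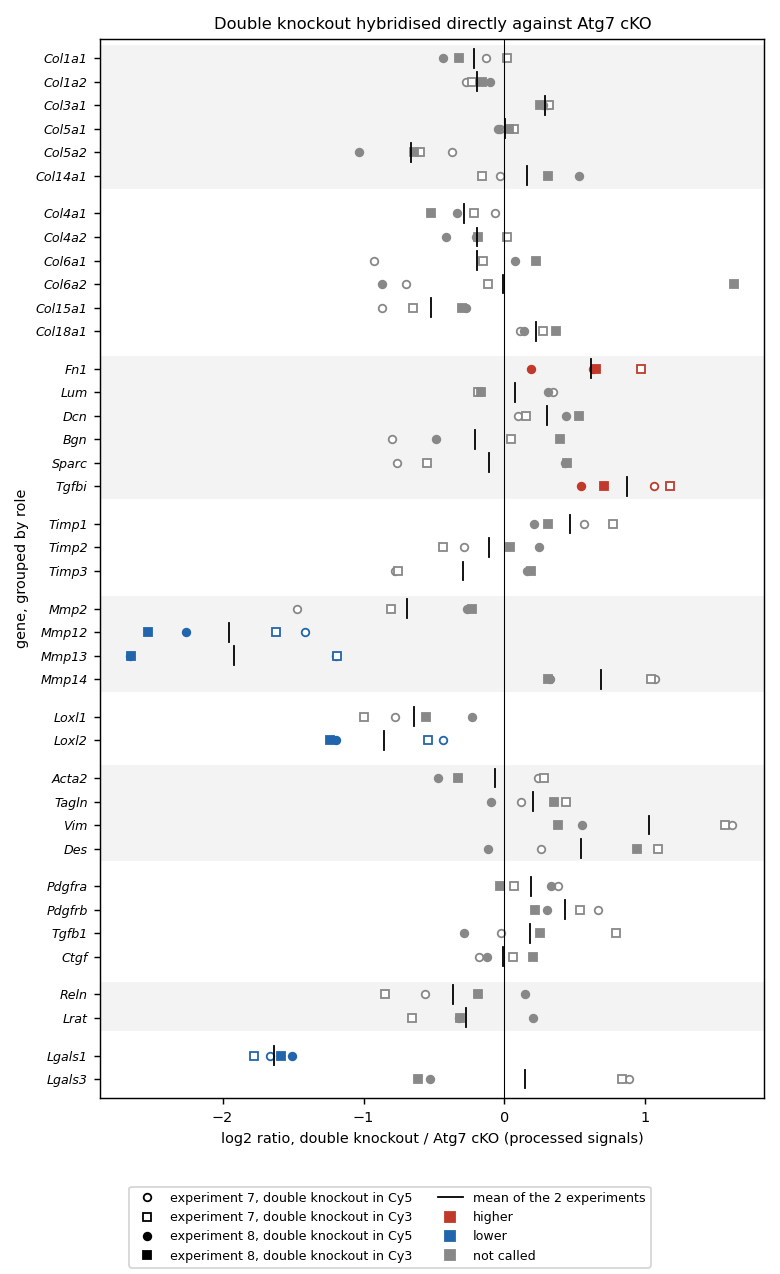
Log2 ratio of double knockout over Atg7 cKO (x axis) on each of the 4 direct arrays for the 39 genes (y axis, grouped by role); open symbols are experiment 7, filled symbols experiment 8, shape gives the dye of the double knockout, the bar the mean, and colour the limma call. Mmp12, Mmp13, Loxl2 and Lgals1 lie to the left of 0 on all arrays and Fn1 and Tgfbi to the right.

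Collagens and contractile genes had no call in the direct comparison. For Col1a1 the difference was -0.22 (95% interval -0.52 to 0.08), for Col1a2 -0.19 (-0.53 to 0.14) and for Acta2 -0.07 (-0.52 to 0.38). A difference of 2-fold in either direction lay outside these intervals. For Vim it was 1.03, from 1.59 in experiment 7 to 0.47 in experiment 8, with an interval of 0.32 to 1.74 (adjusted p = 0.065, limma). Timp1 was at 0.67 and 0.26 (interval 0.08 to 0.85, adjusted p = 0.0967). Lgals3 changed sign between the experiments, at 0.86 and -0.57.

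The same difference can be taken through wild type, from experiments 2, 3, 5 and 6. By that route 1 of the 39 genes was called higher and 1 lower (2.56% each), near the 1.75% and 3.23% of all genes. At an unadjusted p under 0.05 there were 9 of the 39 (23.1%), beside 22% of all genes. Tgfbi was higher by 0.76 (adjusted p = 0.0381) and Lgals1 lower, at -1.51 (adjusted p = 0.0426, limma). Neither passed with slide as a block, with the processed signals, or when any 1 of the 6 experiments was left out. Fn1 was at 0.56 (adjusted p = 0.0524), Vim at 0.86 (0.0833), Mmp12 at -0.72 (0.0835) and Mmp13 at -0.98 (0.165), without a call (limma). Ratios through wild type carry the offset, which shrinks those of dim genes, and the direct ratios carry none. The sizes for Mmp12 and Mmp13 are therefore not comparable between the routes.

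The interaction asks whether the double knockout departs from the sum of the single knockouts on the log2 scale. It called 0 of the 39 genes (limma), beside 0.140% of all genes called higher and 0.609% called lower. At an unadjusted p under 0.05 there were 8 of the 39 (20.5%), beside 14.5% of all genes. Its largest value was that of Lgals1, at -1.60 (adjusted p = 0.121). The fit on single arrays called 4 of the 39 here.

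Further genes of the same processes, listed by function, were read in the same fits. Of 22 measured genes of transforming growth factor and platelet-derived growth factor signalling, 14 were called higher in Atg7 cKO (63.6%, beside 23.4% of all genes) and 1 lower. In the double knockout 10 were called higher (45.5%, beside 21.4% of all genes) and 1 lower. The largest changes were those of Tgfbr2, the type II receptor (1.68 and 0.79), and Pdgfa, a receptor ligand (1.06 and 1.29). Of 15 genes for collagen synthesis and processing, 7 were higher (46.7%) and 1 lower in Atg7 cKO, and 6 (40%) and 2 in the double knockout. Serpinh1, the collagen chaperone, was called higher at 0.90 and 1.34, while Bmp1, which trims procollagen, was called lower at -1.18 and -0.70.

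Other matrix proteins gave 12 higher and 2 lower of 23 in Atg7 cKO, against 5 and 0 in the double knockout. Nid1, a basement membrane linker, was at 2.68 and 1.52, and Spp1 (osteopontin, which is also on the cholangiocyte list) at 2.55 and 2.78. In the direct comparison the laminin chain genes Lama2 (-2.04) and Lama5 (-1.37), Nid1 (-1.18) and Fbln2, for fibulin-2 (-0.99), were called lower in the double knockout, and Vcan, for the proteoglycan versican, higher (0.996). Of 20 other proteases and inhibitors 8 were higher in Atg7 cKO and 7 higher and 2 lower in the double knockout. Plat, the tissue plasminogen activator, was at 1.83 and 0.43, and at -2.27 in the direct comparison with a call. Of 15 other contractile genes 9 and 8 were called higher, and Flna, the actin cross-linker filamin A, was at 1.47 and 1.92. Of 9 other collagens 2 were higher and 3 lower in either comparison. In the double knockout the share called higher was 21.7% of the other matrix proteins and 22.2% of the other collagens, near the 21.4% of all genes.

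Markers of some other liver cells changed alongside. Of 18 macrophage and Kupffer cell genes, all measured, 16 were called higher and 1 lower in Atg7 cKO (median 1.30), and 17 and 1 in the double knockout (median 1.52). Their summed signal, which includes an offset of 50 for each gene, was 9317 to 11832 in wild type and 10814 to 11245 in Nrf2 KO. It was 33028 and 52980 in Atg7 cKO, with 66222 and 61487 in the double knockout. Lgals3, Mmp12, Mmp13, Mmp14, Vim and Lgals1 are also transcribed by macrophages, and the part of macrophages in their ratios was not tested.

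Of 12 measured stellate cell markers outside the 41 genes, 2 were called higher and 2 lower in either comparison (16.7% each way, beside 23.4% and 16.3% of all genes in Atg7 cKO). Among them Cygb (cytoglobin; 0.32 and 0.40) was higher, and Cxcl12 (-1.66 and -1.45) and Angptl6 (-0.79 and -0.80) were lower. The list's summed signal lay between 7316 and 9309 in wild type, 5863 and 6536 in Atg7 cKO, and 5177 and 8010 in the double knockout. Its median ratios were 0.05 (Atg7 cKO) and 0.09 (double knockout), with 8 of the 12 ratios positive for each genotype. The sum gives most weight to the brightest genes, so it does not stand for a fall of most of these markers. Portal fibroblast genes gave 4 higher of 7 in Atg7 cKO and 3 of 7 in the double knockout, smooth muscle genes 2 and 1 of 5, and cholangiocyte and progenitor genes 3 and 3 of 6. Sinusoidal endothelial genes gave 2 higher and 1 lower of 10, then 1 and 4. The 1 measured mesothelial gene was not called.

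Hepatocyte genes fell: 6 of 7 were called lower in Atg7 cKO (median -1.41) and 5 of 7 in the double knockout (median -0.95). Their summed signal was 62720 to 99897 in wild type, 32522 and 35395 in Atg7 cKO, and 36170 and 56538 in the double knockout. Fn1 and Col18a1, the 2 genes called lower in Atg7 cKO, are also made by hepatocytes. The part of the hepatocyte share of RNA in the ratios of the matrix genes was not tested.

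**Figure D5:**
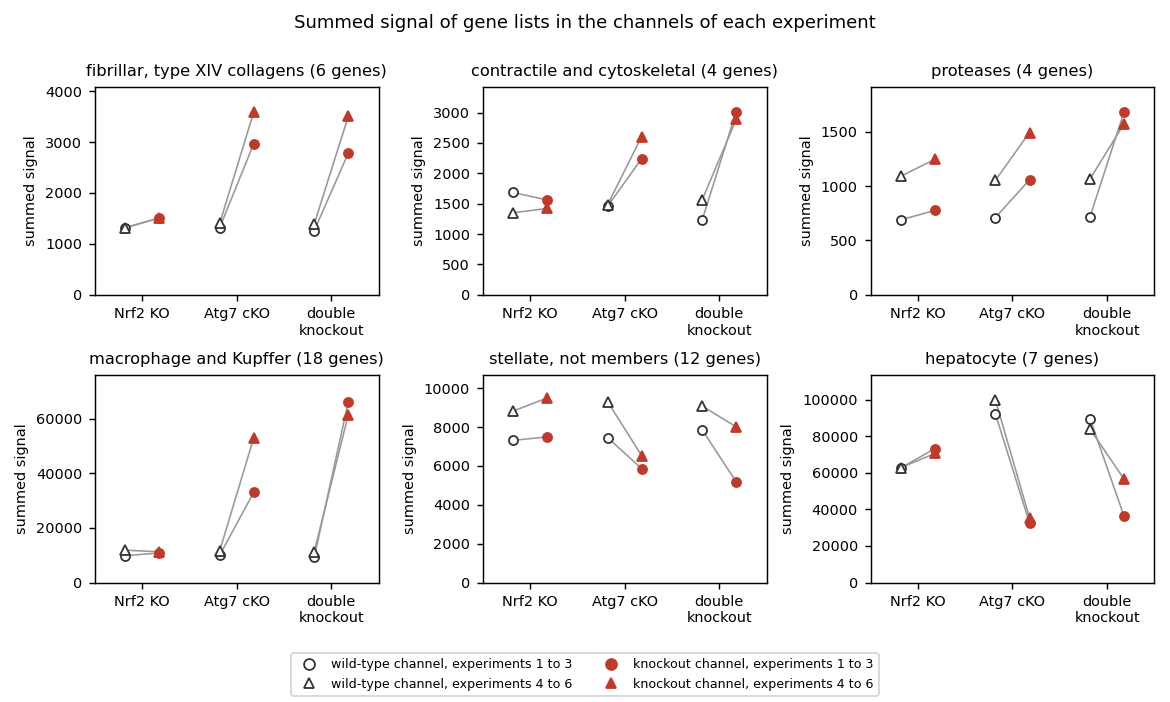
Summed signal (y axis, linear array units including an offset of 50 for each gene) of 3 groups of the matrix genes and 3 lists of cell type markers in the wild-type channel (open) and knockout channel (filled) of each experiment. Macrophage genes go from at most 11832 in wild type to at least 33028 in the Atg7-deficient livers, fibrillar and fibril-associated collagens from at most 1402 to at least 2786, and hepatocyte genes fall.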

How the data were processed

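Liver RNA of 4 genotypes was hybridised to 16 Agilent 2-colour arrays. Per the file headers, the authors scanned the arrays and extracted spot intensity with Feature Extraction 9.5.1.1, probe positions being those of mm9. The deposited value table holds log10 ratios of processed signals, with exact 0 for 23.9% to 29.7% of the spots of an array; its scale and direction were checked against the scanner files of 12 arrays. For experiments 1 to 6, mean signals were background-corrected by normexp with an offset of 50 (limma 3.58.1, R 4.3.3) and normalised by loess within each array, with control spots and outlier flags left out. For experiments 7 and 8, and their fit with all 8 experiments, the deposited log10 ratios were turned into log2 ratios; they were normalised separately from the others.

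Of 41174 probes, 23581 were well above background in at least 4 of 24 channels and were kept (median signal of an array 41.8 to 55.6, background 34.5 to 36.5; 43.4% to 57.2% of spots well above background). The brightest kept probe stood for a gene. Ratios were oriented as knockout over partner and dye swaps averaged, so each experiment counts once; the small number of experiments limits the precision. limma's lmFit and eBayes were fitted to group means over all genes, with Benjamini-Hochberg adjustment and a threshold of 0.05. SD is over 2 experiments; 95% intervals are from the fit. The labels do not say that experiments used separate animals. The sex-linked transcripts Xist and Ddx3y differed between the 2 experiments of each comparison with wild type, so these experiments used different animals. There the SD and p-values measure a spread that includes the difference between the sets. In the direct comparison the spread between samples may be technical, and the SD measures that spread. The p-values and intervals of the direct comparison come from the fit with all experiments. The spread behind them therefore also includes the difference between the sets. Levels are log2 signals of a channel after Aquantile scaling. Fits were tested on simulated data.

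The genes and lists were chosen with earlier results of these data known. Experiment values are given for genes called with at least a 2-fold difference, genes called in the direct comparison or through wild type, and 10 genes listed by name (Col1a1, Col1a2, Col3a1, Acta2, Des, Lrat, Reln, Timp1, Tgfb1 and Ctgf). Sparc, Col18a1 and Timp3 were added after their values were seen. Of further lists, at most the 5 largest called changes are named. Promoters matched RefSeq by symbol for 27 of 41 genes; Col1a1, Col5a2, Col14a1, Fn1, Lum, Dcn, Mmp2, Lox, Loxl1, Loxl2, Tagln, Pdgfrb, Ctgf and Lgals1 had no entry. Exon and UTR annotation of mm9 was not used here. The values of 1 marker gene are not reported here. Alternatives covered the background correction, value table, dim-probe filter, probe choice, slide and set blocks, array-level fits and each experiment left out.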

Additional observations from a re-analysis of the deposited data

Results flagged for a closer look

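The wild-type levels of 39 genes over 6 experiments were screened for a single distant value, for which chance alone picks about 1 in 20 groups, and 2 were found. Tgfb1 stood highest in the wild-type channel of experiment 3, at a log2 signal of 6.207, where the next was 6.107 and the lowest 6.063. Lrat was lowest in the same channel, at 7.043, where the next was 7.381 and the highest 7.573. In that experiment the ratios of these genes to wild type were 0.34 and -0.10, close to those of experiment 6 (0.34 and -0.11).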

How the results depend on the processing

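Of the ratios of single genes under all alternatives, 3150 kept their direction and call, 94 lost the call, 52 gained one, 100 moved without a call and 0 called values changed sign. Called genes numbered 22 to 30 of 39 in Atg7 cKO and 19 to 24 in the double knockout under the other settings, and 0 in Nrf2 KO. Leaving out 1 experiment gave 0 to 0 in Nrf2 KO, 19 to 26 in Atg7 cKO, 17 to 22 in the double knockout, 0 to 3 for the difference through wild type, 0 to 1 for the interaction and 2 to 4 in the direct comparison. Through wild type the 2 calls became 0 with processed signals, 1 without the filter on dim probes, 0 with slide as a block and 8 in the array fit with a random block for experiment. The interaction went from 0 to 4 in that array fit. The 6 direct calls became 3 without the filter, 11 in the array fit and 0 with experiments 7 and 8 alone. The cause was not tested. Over all genes, calls with 1 experiment left out were 0 to 2 in Nrf2 KO (2 as reported), 3181 to 5899 in Atg7 cKO (6517), 2828 to 6177 in the double knockout (6145), 81 to 385 through wild type (818), 2 to 63 for the interaction (123) and 302 to 1834 in the direct comparison (2432). The array fit gave 91, 2451, 1193 and 4213 for Nrf2 KO, the difference through wild type, the interaction and the direct comparison. Through wild type, slide as a block gave 199, set as a block 1412 and processed signals 212; for the interaction these gave 0, 334 and 6. In Nrf2 KO slide gave 4, set 11 and no filter 1. For the direct comparison experiments 7 and 8 alone gave 106. No paired analysis was possible because the groups compared share no experiment number, apart from the pairing by set that follows. Each ratio already pairs the RNAs of 1 array. Each set holds 1 experiment per knockout, and with set as a block the calls among the 39 genes were 0, 27, 24, 2 and 0 for Nrf2 KO, Atg7 cKO, the double knockout, the difference through wild type and the interaction. Probes near background, such as those of Mmp12, Mmp13, Col5a2 and Des, limit the size of ratios.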
